A study of Mus musculus with 16 samples.

Results

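Partners of a fixed DNA break were compared between B cells stimulated through RP105 and B cells stimulated with anti-CD40 plus IL4, in the libraries labelled ATM-deficient (ATM-/-). The comparison took in 3 RP105 libraries and 3 anti-CD40/IL4 libraries, 6 of the 16 in the series, chosen by the genotype and treatment in their labels. Together they held 46100 junctions of 141167. Each junction is 1 sequenced join between the break (the bait) and another genomic end (the prey).

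Both groups were IgM+ B cells from the spleens of 129sv mice aged 6 to 8 weeks, labelled ATM-/-, and 1 of their Myc alleles carried 25 I-SceI sites in a row within its first intron. I-SceI, a yeast endonuclease with a long recognition sequence, was delivered together with GFP by a retrovirus. The RP105 cells received an antibody to RP105 at 2 µg/mL, were infected after 48 h and were harvested at day 5. The anti-CD40/IL4 cells received anti-CD40 at 1 µg/mL and IL4 at 20 ng/mL, were infected after 24 h and were harvested at day 4. The read names placed the RP105 libraries on 2 MiSeq runs and the anti-CD40/IL4 libraries on 3 separate Roche pyrosequencing plates, none shared by both groups. Stimulus, time of infection, harvest day and sequencer therefore cannot be told apart in any difference given here.

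High-throughput genome-wide translocation sequencing (HTGTS) amplifies DNA from a primer next to a nuclease cut and reads which end was joined to it. ATM is a kinase that signals double-strand breaks and holds broken ends for repair. RP105 (CD180) is a Toll-like receptor homologue on the B cell surface, and binding it drives proliferation. CD40 ligation also drives proliferation, and IL4 added to it steers the immunoglobulin heavy chain locus, Igh, toward switching to IgG1 and IgE. Class switching joins breaks that follow the action of AID, a cytidine deaminase, in the repetitive switch regions, and AID also acts at other transcribed genes.

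The RP105 libraries held 6304, 7342 and 10658 junctions, and the anti-CD40/IL4 libraries held 7725, 8449 and 5622. The median read was 251 to 285 bases long in the RP105 libraries and 311 to 325 bases in the anti-CD40/IL4 libraries. No label tells whether the libraries of a group came from separate mice, so tests measure the spread between libraries. Within RP105, 3.63% to 5.71% of junctions outside chromosome 15 lay on chromosome 12 centromeric of Igh in the 3 libraries labelled ATM-deficient, against 11.3% to 12.3% in the 3 labelled wild type. Within anti-CD40/IL4 the order was the opposite, with 7.59% to 10.3% in the 3 libraries labelled ATM-deficient and 2.60% to 4.07% in the 4 labelled wild type. Joins within 1 Mb of the break also ran in opposite orders. With RP105 they made up 86.0% to 88.7% of all junctions in the libraries labelled ATM-deficient and 63.1% to 65.8% in those labelled wild type. With anti-CD40/IL4 they made up 50.7% to 59.1% under the ATM-deficient label and 75.7% to 80.9% under the wild-type label. The files hold no measure of Atm itself, so whether the genotype labels of the RP105 libraries are exchanged was not tested, and the groups are called here by their labels. Some directions below depend on those labels. The RP105 libraries labelled wild type held 11.9% ± 0.525 of junctions outside chromosome 15 on chromosome 12 centromeric of Igh, above the 8.70% ± 1.38 of the anti-CD40/IL4 libraries labelled ATM-deficient, and 9.90% ± 1.16 of all junctions beyond 1 Mb centromeric of the break, against 7.67% ± 1.37 (SD, n = 3 each). In the constant part of Igh they held 0.985% to 1.57%, below the 4.86% to 6.89% of those anti-CD40/IL4 libraries. Telomeric of the break they held 0.580% to 0.800% of all junctions at 10 to 100 kb, below 0.880% to 0.947%. From 100 kb to 1 Mb telomeric they held 0.398% to 0.424%, below 0.568% to 0.712%. From 100 kb to 1 Mb centromeric they held 1.405% to 2.30%, above 1.24% to 1.33%.

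Sequences of 2 kinds carry the results below. The first is the CA repeat of Myc beside the break, at chr15:61818882-61818903 on the plus strand of mm9, whose repeat is in capitals:

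Myc CA repeat: ctcccccccaacCACACACACA

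The second kind is sites elsewhere in the genome that were joined again and again and that resemble the 19 bases shared by the cassette's repeated I-SceI units. Bases that equal the cassette's are in capitals. These mm9 stretches were read from the deposited alignments, and each is written on the strand that matches the cassette's.

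Scd2, chr19:44375491-44375530, plus strand, 18 of 19 bases: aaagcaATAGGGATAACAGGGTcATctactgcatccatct
Mpdu1, chr11:69472495-69472543, plus strand, 15 of 19 bases: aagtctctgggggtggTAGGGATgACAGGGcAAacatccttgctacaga
Apbb1, chr7:112727850-112727886, minus strand, 15 of 19 bases: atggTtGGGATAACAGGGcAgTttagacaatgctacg
Fermt2, chr14:46096811-46096859, minus strand, 14 of 19 bases: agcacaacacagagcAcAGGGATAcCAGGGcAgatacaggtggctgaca
Gucy2f, chrX:138520772-138520820, minus strand, 14 of 19 bases: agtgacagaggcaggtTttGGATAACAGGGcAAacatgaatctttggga
No gene name, chr1:31667667-31667715, plus strand, 14 of 19 bases: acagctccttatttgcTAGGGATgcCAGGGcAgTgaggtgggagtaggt
Mmp24, chr2:155631464-155631512, plus strand, 13 of 19 bases: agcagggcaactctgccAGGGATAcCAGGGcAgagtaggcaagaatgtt

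Most joins stayed beside the break, and more so with RP105. Joins no farther than 1 Mb from the break made up 88.7%, 87.3% and 86.0% of the total in the RP105 libraries, against 59.1%, 53.7% and 50.7% in the anti-CD40/IL4 libraries. Outside chromosome 15 lay 9.30%, 10.1% and 10.8% of junctions in the RP105 libraries, against 28.4%, 32.1% and 34% in the anti-CD40/IL4 libraries. Neither share overlapped between the groups. The 3 KU55933 libraries are a separate group, not among those labelled ATM-deficient. Their cells were stimulated with anti-CD40/IL4 in the presence of that ATM inhibitor at 10 µM, and they were run on a MiSeq. They had 52.5% to 55.6% within 1 Mb and 30.7% to 34.3% outside chromosome 15. Over 35 shares compared, 77.1% had groups that did not overlap, and a two-sided exact permutation test of 3 against 3 libraries cannot go below p = 0.1, or 0.130 after adjustment over the 35.

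**Figure D1:**
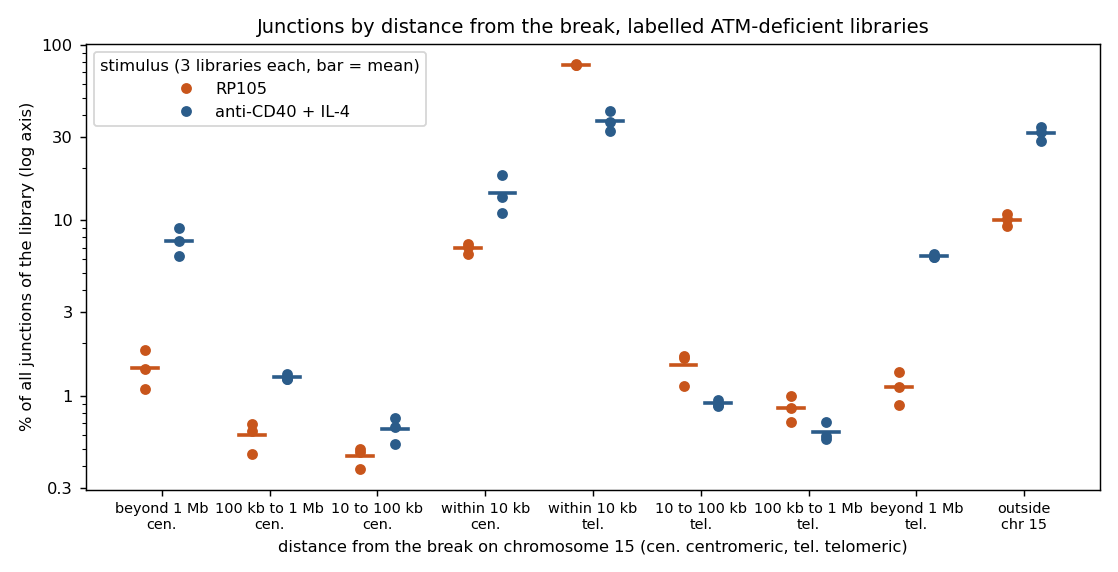
Share of all junctions (log axis) by distance from the break on chromosome 15 and outside it, 1 point per library, bars at the means, RP105 left of anti-CD40/IL4. As shares of all junctions, only the zones telomeric of the break out to 1 Mb lie higher with RP105, led by the 10 kb next to it, where RP105 libraries hold 76.5% to 77.7% and anti-CD40/IL4 libraries 32.2% to 42.1%.

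As shares of all junctions, the zones that lay higher with RP105 were telomeric of the break and within 1 Mb of it. The 10 kb telomeric of the break held 77.7%, 76.5% and 76.7% of all junctions in the RP105 libraries, against 42.1%, 32.2% and 36.2% in the anti-CD40/IL4 libraries. The 10 kb centromeric of it held 7.36%, 7.08% and 6.41% in the RP105 libraries, against 13.7%, 18.1% and 11% in the anti-CD40/IL4 libraries. Beyond 1 Mb on the centromeric side the shares were 1.09%, 1.43% and 1.83% in the RP105 libraries and 6.30%, 7.67% and 9.04% in the anti-CD40/IL4 libraries. Beyond 1 Mb on the telomeric side they were 0.888%, 1.12% and 1.36% in the RP105 libraries and 6.17%, 6.46% and 6.21% in the anti-CD40/IL4 libraries. In none of these 4 zones did the groups overlap.

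In the edgeR fit over 37 regions of the whole genome, chromosome 15 included, 2 regions rose (5.41%) and 25 fell (67.6%), 73.0% in all, as shares of all junctions. The 2 that rose were the first 10 kb telomeric of the break, with a log2 fold change of 1.06 (SE 0.13, edgeR adjusted p = 1.13e-08), and the stretch from 10 to 100 kb telomeric, with 0.70 (SE 0.23, edgeR adjusted p = 0.00764). From 100 kb to 1 Mb telomeric the value was 0.44 (SE 0.21, edgeR adjusted p = 0.0605), which passed without anti-CD40/IL4 replicate 1 (0.55) or without RP105 replicate 3 (0.57). Centromeric of the break the first 10 kb fell by 1.04 (SE 0.21), a direction that turned when each position was counted once (0.053). That count caps a window at its number of positions. RP105 replicate 3 had 3625 plus-strand joins in the 500 bp from 0.5 to 1 kb telomeric. The cap can thus lower the telomeric share and raise the others, so the turn does not tell what happened centromeric of the break. The stretch from 100 kb to 1 Mb centromeric fell by 1.11 (SE 0.19), while 10 to 100 kb had -0.49 (SE 0.26, edgeR adjusted p = 0.0856). Beyond 1 Mb the centromeric arm fell by 2.38 (SE 0.20) and the telomeric arm by 2.46 (SE 0.16).

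Shares of all junctions are bound to each other, so a rise beside the break lowers every other share. The median of the 37 regions was -1.56, and TMM factors moved it by 1.40 and DESeq2 size factors by 1.53. With those scalings 5 regions rose and 7 fell (TMM), or 5 rose and 4 fell (DESeq2). Under them the first 10 kb centromeric of the break turned to 0.39 (TMM) and 0.49 (DESeq2), and the stretch from 100 kb to 1 Mb centromeric to 0.29 and 0.41. Among regions past the threshold in the main fit, the largest falls were at the constant part of Igh (-3.79) and its D-J part (-3.53, with 1, 0 and 1 RP105 junctions). Chromosome 12 centromeric of Igh (-2.55) and chromosome 15 beyond 1 Mb (-2.46 to -2.38) came next, then chromosome 19 (-1.94).

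Next to the break, joins are read in the orientation the prey was joined: plus-strand prey telomeric of the cut and minus-strand prey centromeric of it are ends that lead away from the break. Plus-strand prey from 0.5 to 1 kb telomeric made up 30.4%, 30.5% and 34% of all junctions in the RP105 libraries, against 17.9%, 13.1% and 13.5% in the anti-CD40/IL4 libraries, a ratio of 2.13. From 2.5 to 7 kb the ratio of means was larger, 3.65, with 11.7%, 12.8% and 9.69% in the RP105 libraries and 3.37%, 2.56% and 3.45% in the anti-CD40/IL4 libraries. Closest to the break, from 0 to 0.5 kb, it was 1.57, with 16.5% ± 0.630 in the RP105 libraries and 10.5% ± 1.59 in the anti-CD40/IL4 libraries (SD, n = 3 each). Telomeric joins thus lay farther from the break with RP105: 63.1%, 63.1% and 66.9% of the plus-strand joins within 10 kb lay inside the first kb, against 73.4%, 72.0% and 72.0% with anti-CD40/IL4. This direction also depends on the labels, since the RP105 libraries labelled wild type had 73.6% to 78.5%.

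Centromeric of the break the minus-strand prey of the first 0.5 kb made up 1.48%, 1.25% and 1.56% of all junctions in the RP105 libraries, against 6.15%, 8.65% and 4.29% in the anti-CD40/IL4 libraries, a ratio of 0.225. Joins at the same position each count here, and the fall within 10 kb centromeric turned when each position was counted once, with the limit given above. Such a count was not made for these shorter windows. From 2 to 7 kb centromeric the groups overlapped, with 0.677% ± 0.111 in the RP105 libraries and 0.797% ± 0.124 in the anti-CD40/IL4 libraries (SD, n = 3 each). Joins in the opposite orientation overlapped between the groups from 0.5 to 7 kb, but not in the 0.5 kb on either side of the break. Minus-strand prey from 0 to 0.5 kb telomeric numbered 14, 26 and 33 in the RP105 libraries, against 6, 3 and 0 in the anti-CD40/IL4 libraries. Plus-strand prey in the 0.5 kb centromeric made up 0.968%, 0.885% and 0.873% of all junctions in the RP105 libraries, against 0.518%, 0.746% and 0.516% in the anti-CD40/IL4 libraries. Farther out, minus-strand prey from 0.5 to 7 kb telomeric made up 1.83% ± 0.202 in the RP105 libraries and 1.81% ± 0.225 in the anti-CD40/IL4 libraries, and plus-strand prey from 0.5 to 7 kb centromeric 0.656% ± 0.214 and 0.553% ± 0.106 in the same order of groups (SD, n = 3 each). The dips of the profiles lay at nearly the same distances in both groups.

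**Figure D2:**
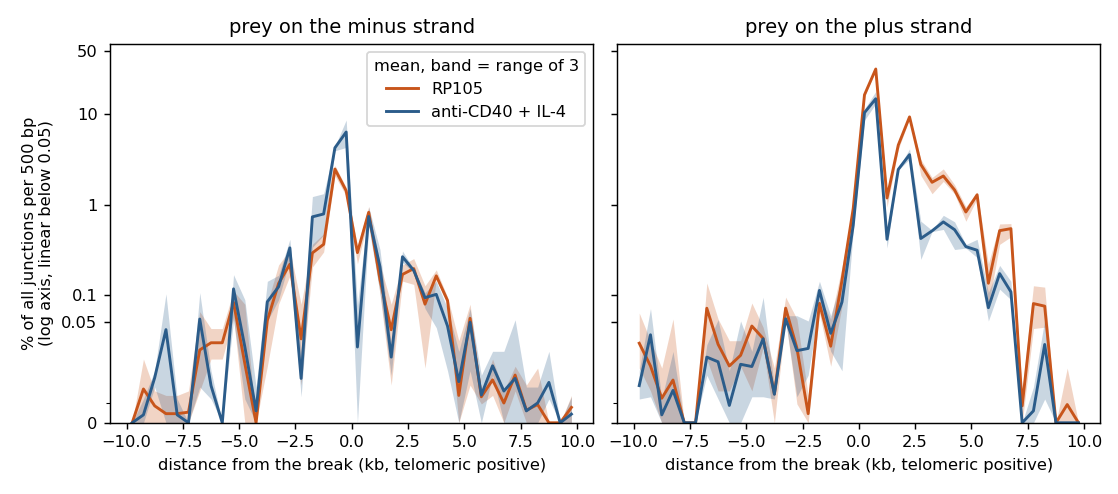
Junctions within 10 kb of the break in steps of 500 bp, by prey strand, as % of all junctions of the library (log axis, linear below 0.05), lines at the mean of 3 libraries and bands over their range. Plus-strand prey telomeric of the break lie higher with RP105 out to 7 kb, minus-strand prey within 2 kb centromeric lie lower, and minus-strand prey from 0.5 to 7 kb telomeric overlap.

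As a share of all junctions, those outside chromosome 15 had a ratio of 0.320 (RP105 over anti-CD40/IL4). Farther along chromosome 15 the density of joins, also taken over all junctions, was lower with RP105 at each distance measured. From 1 to 5 Mb centromeric it was 1.93 ± 0.271 per Mb per 1000 junctions in the RP105 libraries and 6.79 ± 1.12 in the anti-CD40/IL4 libraries (SD, n = 3 each), a ratio of 0.285. From 20 to 40 Mb centromeric the ratio was 0.124. From 1 to 5 Mb telomeric the density was 0.284 ± 0.0792 in the RP105 libraries and 1.87 ± 0.313 in the anti-CD40/IL4 libraries (SD, n = 3 each), a ratio of 0.152. In both groups the density 10 to 20 Mb telomeric exceeded that from 5 to 10 Mb, with 0.440 and 0.0672 in the RP105 libraries and 2.37 and 0.790 in the anti-CD40/IL4 libraries.

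**Figure D3:**
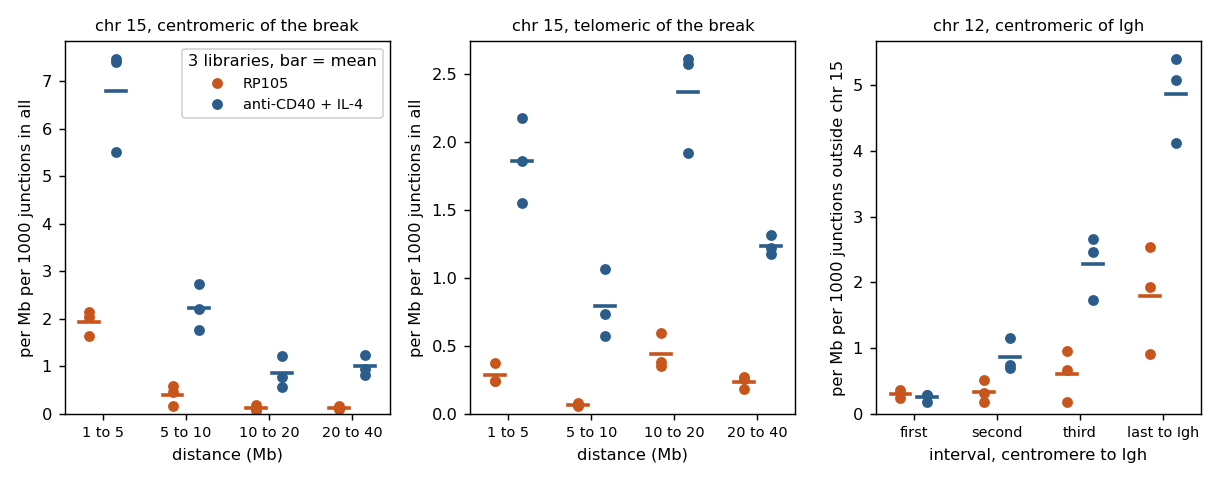
Joins per Mb at 1 to 40 Mb from the break on chromosome 15 (per 1000 junctions in all) and on chromosome 12 centromeric of Igh (per 1000 junctions outside chromosome 15), 1 point per library, bars at the means, RP105 left. On chromosome 12 the 4 intervals run from 3 to 70 Mb, 70 to 100 Mb, 100 to 110 Mb and 110 Mb to Igh, and only the first does not lie lower with RP105.

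Outside chromosome 15, where shares are taken of those junctions alone, Igh and the part of chromosome 12 before it received fewer joins with RP105. The constant part of Igh with its switch regions (mm9 chromosome 12, 114427082 to 114664838) held 15, 1 and 16 junctions in the RP105 libraries, or 2.56%, 0.134% and 1.38%, against 126, 187 and 93 in the anti-CD40/IL4 libraries, or 5.75%, 6.89% and 4.86%. The groups did not overlap, and RP105 replicate 2 had a single join there. The chromosome centromeric of Igh held 3.92%, 3.63% and 5.71% in the RP105 libraries, against 8.26%, 7.59% and 10.3% in the anti-CD40/IL4 libraries, again without overlap.

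EdgeR called 4 of 29 features (13.8%), 2 higher (6.9%) and 2 lower (6.9%), while the groups did not overlap in 27.6%. The constant and switch part of Igh fell by 2.20 on the log2 scale (SE 0.28, edgeR adjusted p = 1.92e-07), and chromosome 12 centromeric of Igh fell by 0.89 (SE 0.15, edgeR adjusted p = 2.69e-05). Both were called under each of the alternatives run. The interaction with the labelled genotype passed for chromosome 12 centromeric of Igh, where the libraries labelled wild type had 1.96, and not for the constant part of Igh, where they had -3.30 (edgeR adjusted p of the interaction = 0.101). It passed for 10.3% of features, and for 75.7% of regions as shares of all junctions. The D-J part of Igh had 1, 0 and 1 junctions in the RP105 libraries and 7, 13 and 4 in the anti-CD40/IL4 libraries, with -2.04 (SE 0.99, edgeR adjusted p = 0.203).

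The difference on chromosome 12 lay toward Igh. From 3 to 70 Mb the density was 0.302 ± 0.0583 per Mb per 1000 junctions outside chromosome 15 in the RP105 libraries and 0.247 ± 0.0569 in the anti-CD40/IL4 libraries (SD, n = 3 each). From 70 to 100 Mb it was 0.334 ± 0.175 and 0.866 ± 0.247, from 100 to 110 Mb 0.598 ± 0.396 and 2.29 ± 0.492, and from 110 Mb to Igh 1.79 ± 0.823 and 4.87 ± 0.669, RP105 before anti-CD40/IL4 in each pair (SD, n = 3 each). The ratios of RP105 over anti-CD40/IL4 were 1.22, 0.386, 0.261 and 0.368 in that order.

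Antigen receptor loci other than Igh held few joins in either group. Igk, the kappa light chain locus, had 2, 2 and 4 junctions in the RP105 libraries and 6, 6 and 0 in the anti-CD40/IL4 libraries, with 0.85 (SE 0.85, edgeR adjusted p = 0.729). Igl had 0 in the RP105 libraries and 2 in the anti-CD40/IL4 libraries. The T cell receptor loci Tra/Trd, Trb and Trg together had 1 junction in the RP105 libraries and 2 in the anti-CD40/IL4 libraries.

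The switch regions are where the stimuli are known to differ. Se, the switch region of IgE (mm9 chromosome 12, joins from 114512619 to 114515455), had 0, 0 and 0 junctions in the RP105 libraries, against 24, 37 and 16 in the anti-CD40/IL4 libraries. A count of 0 allows a share of up to 0.512%, 0.403% and 0.260% of junctions outside chromosome 15 in the 3 RP105 libraries, for counting error only. Set at a floor of 3 counts over the RP105 group, Se was at least 9.36-fold lower with RP105 (edgeR adjusted p = 0.000691). Sg1, the switch region of IgG1, had 4, 0 and 1 junctions in the RP105 libraries, against 35, 45 and 31 in the anti-CD40/IL4 libraries, and fell by 2.91 (SE 0.86, edgeR adjusted p = 0.0361). Smu, the donor switch region, had 8, 0 and 5 junctions in the RP105 libraries, against 29, 59 and 23 in the anti-CD40/IL4 libraries, with -1.52 (SE 0.75, edgeR adjusted p = 0.421). As shares of all junctions, Smu fell by 3.14 and Sg1 by 4.50 (edgeR adjusted p = 0.000800 and 4.76e-06). On that scale the median of all 162 genes was -1.87, with 135 estimates below 0 and 9 genes called lower.

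Sg3, Sg2a and Sa, the switch regions of IgG3, IgG2a and IgA, were nearly empty. Sg3 had 1, 0 and 0 junctions in the RP105 libraries and 0, 1 and 1 in the anti-CD40/IL4 libraries. Sg2a had 1 junction, in RP105 replicate 2, and Sa had none in either group. Of 6 switch regions tested 0 rose and 2 fell, against 0.617% and 1.23% of all 162 genes tested (1.85% in all), and all 7 with a join in the series held 2.22%, 0.134% and 0.606% of junctions in the RP105 libraries, against 4.06%, 5.23% and 3.77% in the anti-CD40/IL4 libraries. The call of Sg1 ended without anti-CD40/IL4 replicate 1, 2 or 3 (-2.92, -2.89, -2.92), without RP105 replicate 2 or 3 (-2.37 for each) without junctions that start in a CA repeat (-2.66, edgeR adjusted p = 0.0693), with no more than 1 Mb at the break left out (-2.73) and with no minimum count. Without RP105 replicate 1, which held 4 of the 5 RP105 joins at Sg1, the value was -4.82. The call of Se ended without RP105 replicate 3 (edgeR adjusted p = 0.0710) and with no minimum count, where more genes are tested (edgeR adjusted p = 0.135).

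AID off-target genes are transcribed genes outside Igh that AID is known to hit in activated B cells. The 32 listed genes together had 5, 5 and 9 junctions in the RP105 libraries, or 0.853%, 0.672% and 0.779%, against 54, 63 and 21 in the anti-CD40/IL4 libraries, or 2.46%, 2.32% and 1.10%. The groups did not overlap. Nor did they for all 162 genes tested, with 11.9%, 8.74% and 10.4% against 14.3%, 13.8% and 12.4%. Of the 15 with at least 10 junctions over the series, 0 rose and 0 fell. Of the 15, 4 had estimates above 0 and 11 below, beside 61 and 97 of the 162. The median of the 15 was -1.76 beside -0.51 for all 162 genes. No RP105 library had a join in 6 of the 15 and in 69 of the 162. With genes at 0 set to their bounds both medians were 0.0. Genes entered by their joins over all 16 libraries, which hold 33479 junctions outside chromosome 15. The RP105 libraries compared here gave 2486 of them and the anti-CD40/IL4 libraries 6818. A gene could therefore pass without any RP105 join. The filter can thus set part of the lean below 0 and of the lower RP105 share of the 162, and neither is support for a difference.

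Il4ra, which codes for a chain of the IL4 receptor, had 1, 0 and 3 junctions in the RP105 libraries, against 16, 17 and 5 in the anti-CD40/IL4 libraries, with -1.76 (SE 0.82, edgeR adjusted p = 0.397). Pim1, a serine/threonine kinase, had 0, 0 and 1 in the RP105 libraries, against 16, 7 and 1 in the anti-CD40/IL4 libraries, with -2.96 (SE 1.11, edgeR adjusted p = 0.213). Il21r, the receptor chain for IL21, had 0 in each RP105 library and 2, 5 and 2 in the anti-CD40/IL4 libraries. Pax5, a B cell transcription factor, had 0, 0 and 2 in the RP105 libraries and 3, 6 and 3 in the anti-CD40/IL4 libraries. Cd83, a surface protein of activated B cells, had 1, 1 and 1 in the RP105 libraries and 3, 4 and 4 in the anti-CD40/IL4 libraries, with -0.40 (SE 0.97). Anti-CD40/IL4 replicate 3 was the lowest of its group for Il4ra and Pim1. As shares of all junctions 3 AID off-target genes fell, Il4ra by 3.28, Pim1 by 4.30 and Il21r, at 0 with RP105, with edgeR adjusted p = 0.0195, when 5.56% of the 162 genes fell and 0.0% rose.

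Il4ra and Il21r lie between 130 and 135 Mb on chromosome 7, and that bin was 1 of 3 bins of 455 that fell (0.659%), while 3 others rose (0.659%, or 1.32% in both directions). It had 1, 0 and 7 junctions in the RP105 libraries, against 27, 35 and 19 in the anti-CD40/IL4 libraries, with -1.88 (SE 0.53, edgeR adjusted p = 0.0301). The other bins that fell were on chromosome 12. From 110 to 115 Mb, which includes the constant part of Igh, there were 21, 4 and 30 junctions in the RP105 libraries, against 173, 266 and 141 in the anti-CD40/IL4 libraries, with -1.92 (SE 0.37, edgeR adjusted p = 0.000104). From 105 to 110 Mb there were 1, 2 and 7 in the RP105 libraries, against 36, 27 and 29 in the anti-CD40/IL4 libraries, with -1.76 (SE 0.48, edgeR adjusted p = 0.0301).

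The bins that rose were all on chromosome 1. From 70 to 75 Mb there were 1, 8 and 11 junctions in the RP105 libraries and 2, 3 and 7 in the anti-CD40/IL4 libraries, with 2.13 (SE 0.55, edgeR adjusted p = 0.0235). From 30 to 35 Mb there were 7, 6 and 10 in the RP105 libraries and 5, 5 and 8 in the anti-CD40/IL4 libraries, with 1.78 (SE 0.49, edgeR adjusted p = 0.0301). From 15 to 20 Mb there were 0, 2 and 4 in the RP105 libraries and none in the anti-CD40/IL4 libraries, at least 5.49-fold higher against a floor of 3 counts over the group (edgeR adjusted p = 0.0301). The groups overlapped as shares in the bins at 70 and 15 Mb. CA-repeat starts made up 9 of 20 RP105 junctions at 70 Mb and 4 of 6 at 15 Mb, against 0 in the anti-CD40/IL4 libraries. In the bin at 30 Mb, 16 of 23 RP105 junctions and 8 of 18 anti-CD40/IL4 junctions lay in the recurrent site shown above, and the value without recurrent sites and CA-repeat starts was -0.53.

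Calls of single bins were fragile. With TMM factors 0 bins rose and 6 fell, with DESeq2 1 rose and 5 fell, and with only the 6 libraries in the fit 1 rose and 0 fell. The median of the 455 bins moved by -0.45 with TMM and -0.32 with DESeq2. The bin from 110 to 115 Mb of chromosome 12 remained called without any 1 library. Each of the other 5 lost its call without 1 library or another: the bin at 105 Mb without RP105 replicate 1 or 2 (-1.53, -1.58) or anti-CD40/IL4 replicate 1 or 3 (-1.62, -1.69), and the bin on chromosome 7 without RP105 replicate 1 or 2 (-1.69, -1.37) or anti-CD40/IL4 replicate 1 or 2 (-1.85, -1.80). The bin at 70 Mb did so without RP105 replicate 2 or 3 (1.90, 1.89) or anti-CD40/IL4 replicate 1 or 2 (1.84, 1.82), the bin at 30 Mb without any 1 RP105 library (1.64, 1.87, 1.86) or anti-CD40/IL4 replicate 1 or 2 (1.69, 1.53), and the bin at 15 Mb without RP105 replicate 2 or 3 or any 1 anti-CD40/IL4 library. In the other direction, leaving out RP105 replicate 3 gave -3.87 on chromosome 7 and -2.57 at 105 Mb of chromosome 12, and leaving out anti-CD40/IL4 replicate 3 gave 2.90 at 70 Mb of chromosome 1.

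Chromosome 1 and chromosome 10 were the features that rose. Chromosome 1 held 12.8%, 11.7% and 14.2% of junctions outside chromosome 15 in the RP105 libraries, against 5.93%, 5.60% and 6.49% in the anti-CD40/IL4 libraries, with 1.13 on the log2 scale (SE 0.11, edgeR adjusted p = 3.16e-10). Chromosome 10 held 8.87%, 6.45% and 4.76% in the RP105 libraries, against 4.56%, 4.31% and 4.29% in the anti-CD40/IL4 libraries, with 0.52 (SE 0.16, edgeR adjusted p = 0.0208). The rise of chromosome 10 depends on the labels, since the RP105 libraries labelled wild type held 4.41% to 4.56%, within the anti-CD40/IL4 range. Without RP105 replicate 1 chromosome 10 had 0.31 (edgeR adjusted p = 0.283), and its call also ended without RP105 replicate 2 (0.50) or anti-CD40/IL4 replicate 2 (0.50). Chromosome 14 had 0.48 (SE 0.17, edgeR adjusted p = 0.0541). Of all junctions, chromosome 15 included, chromosome 1 held 1.30% in the RP105 libraries and 1.90% in the anti-CD40/IL4 libraries on average, and on that scale it fell by 0.52, the smallest fall among the chromosomes that passed.

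**Figure D4:**
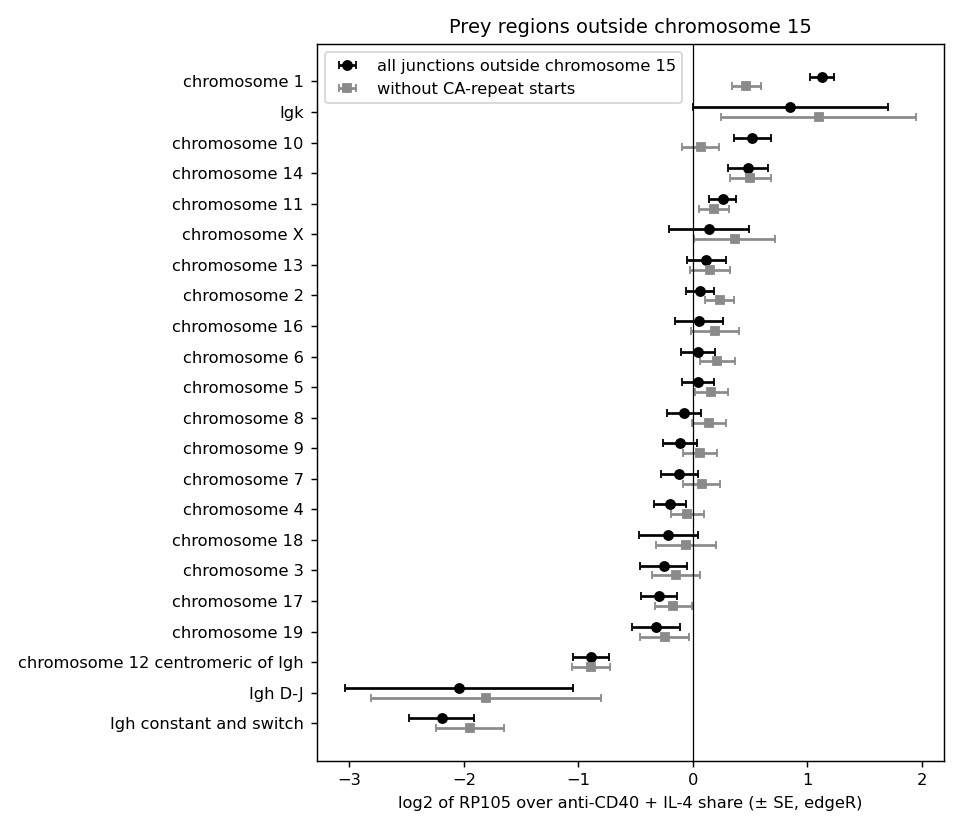
Log2 of the RP105 over the anti-CD40/IL4 share for each feature outside chromosome 15 with at least 20 junctions in the 6 libraries, with standard errors, for all junctions (circles) and without those that start in a CA repeat (squares). Chromosome 1 lies at 1.13 and 0.47 and chromosome 10 at 0.52 and 0.07, while both parts of chromosome 12 stay below 0.

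Junctions whose prey begins in a CA repeat moved with both chromosomes. A start was counted where the first 8 prey bases alternated C and A. Such starts made up 19.8%, 16.8% and 14.4% of junctions outside chromosome 15 in the RP105 libraries, against 0.958%, 0.332% and 0.209% in the anti-CD40/IL4 libraries, with no overlap. In the KU55933 libraries they made up 2.52% to 2.91%, and in the RP105 libraries labelled wild type 6.97% to 8.68%. On chromosome 1 they were 38 of 75, 46 of 87 and 70 of 164 junctions in the RP105 libraries, against 1 of 130, 1 of 152 and 1 of 124 in the anti-CD40/IL4 libraries. Chromosome 1 took 37.7% of all 408 CA-repeat starts of the RP105 libraries and 8.29% of their other junctions, and chromosome 10 took 14.7% and 4.58%.

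Many of these reads pass through the CA repeat beside the break before they reach the prey. The 12 bases cccccaaccaca, at chr15:61818886-61818897 on the plus strand of mm9, run into that repeat and begin 8 bases telomeric of the position taken as the break. They stood in the read before the prey, or reached no farther than its first 12 bases, in 293 of the 408 CA-repeat starts of the RP105 libraries (71.8%). In the anti-CD40/IL4 libraries they did so in 18 of the 34 (52.9%). Of all junctions outside chromosome 15, 15.4%, 14.8% and 11.2% carried them in the RP105 libraries, against 0.593%, 0.147% and 0.105% in the anti-CD40/IL4 libraries. Without CA-repeat starts chromosome 1 had 0.47 (edgeR adjusted p = 0.0110) and chromosome 10 had 0.07 (edgeR adjusted p = 0.797). Without those starts and without recurrent sites, chromosome 1 had 0.36 (edgeR adjusted p = 0.154). The part of the CA repeat in these differences beyond those values was not tested.

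Narrow recurrent sites were defined outside chromosome 15 and the antigen receptor loci as joins no more than 50 bp apart with at least 10 joins over the 16 libraries. There were 40 such sites with 939 joins. Of these, 8 matched the repeated cassette unit in at least 14 of 19 bases, and Mmp24 matched in 13. The remaining sites matched in at most 12. Among 25205 single joins elsewhere, read over 51 bases on both strands, 0.175% reached 14 matches and 0.877% reached 13. The limit of 14 was set with the matches in view, and windows at the sites were longer, so these shares are a description.

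The joins at the 8 sites made up 2.56%, 2.55% and 2.85% of junctions outside chromosome 15 in the RP105 libraries, against 0.547%, 0.884% and 0.941% in the anti-CD40/IL4 libraries. As joins per 1000 junctions of the whole library they were 2.38, 2.59 and 3.10 in the RP105 libraries and 1.55, 2.84 and 3.20 in the anti-CD40/IL4 libraries. The groups thus overlapped on the second scale and not on the first. Scd2, a fatty acid desaturase gene and the closest match with 18 of 19 bases, stood apart: its site had 0, 0 and 0 joins in the RP105 libraries and 2, 3 and 3 in the anti-CD40/IL4 libraries.

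**Figure D5:**
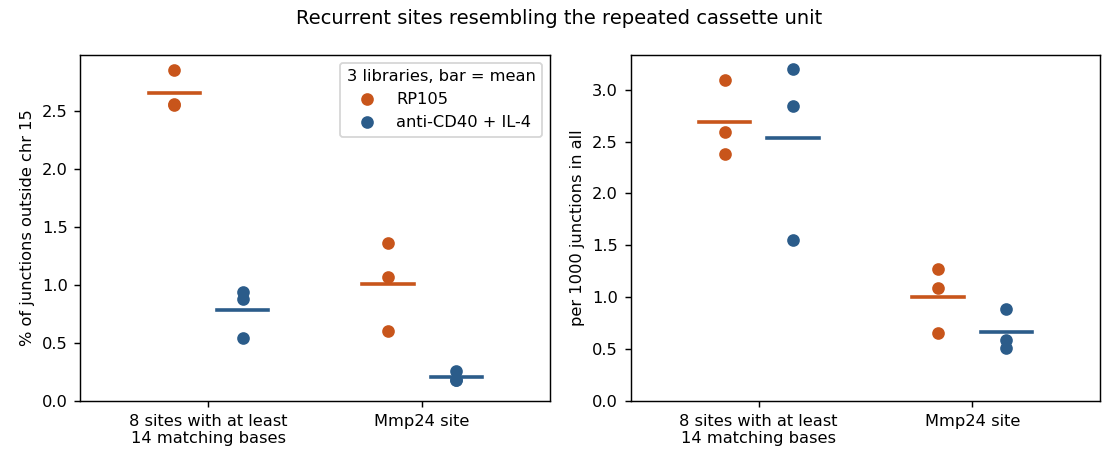
Joins at the 8 recurrent sites that match the cassette unit in at least 14 of 19 bases, and at the Mmp24 site, as % of junctions outside chromosome 15 (left) and per 1000 junctions in all (right), 1 point per library, bars at the means. RP105 libraries lie above anti-CD40/IL4 libraries in the left panel, with 2.55% to 2.85% against 0.547% to 0.941% at the 8 sites, and overlap them there in the right panel.

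Mmp24, which codes for a membrane-bound matrix metalloproteinase, was the 1 gene of 162 that rose (0.617%). It had 9, 9 and 15 junctions in the RP105 libraries and 5, 7 and 6 in the anti-CD40/IL4 libraries, with 2.31 on the log2 scale outside chromosome 15 (SE 0.61, edgeR adjusted p = 0.0119). Its recurrent site, printed above, held 8, 8 and 7 of them in the RP105 libraries and 4, 5 and 5 in the anti-CD40/IL4 libraries. As a share of all junctions Mmp24 had 0.69 (edgeR adjusted p = 0.446). Its call ended with TMM factors (0.89), with DESeq2, with no minimum count, without recurrent sites and CA-repeat starts (2.88), and without RP105 replicate 3 (2.34) or any 1 anti-CD40/IL4 library (2.22, 2.29, 2.43).

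Among the genes with most joins under RP105, beside Mmp24, Smu and Sg1, were 4 others with a site like the cassette unit. Fermt2, an adaptor of integrin signalling, had 5, 5 and 5 junctions in the RP105 libraries and 3, 6 and 1 in the anti-CD40/IL4 libraries, with 2.07 (SE 0.70, edgeR adjusted p = 0.104). Apbb1, an adaptor of the amyloid precursor protein, had 3, 5 and 6 in the RP105 libraries and 1, 7 and 5 in the anti-CD40/IL4 libraries, with 1.55 (SE 0.68, edgeR adjusted p = 0.359). Gucy2f, a retinal guanylate cyclase, had 1, 2 and 7 in the RP105 libraries and 1, 0 and 2 in the anti-CD40/IL4 libraries, with 2.95 (SE 0.92, edgeR adjusted p = 0.0577). Kirrel3, a cell adhesion molecule, had 3, 0 and 4 in the RP105 libraries and 2, 2 and 1 in the anti-CD40/IL4 libraries. None of these 4 passed the threshold, and as shares of all junctions their values were 0.48, -0.06, 1.40 and 0.31 in that order.

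A further 13 sites were stacked, with at least 50% of their joins at a single position and 73.3% to 100% of their joins holding over 10 bases between bait and prey. They were found in 9 to 14 of the 16 libraries each. They gave 10, 12 and 14 joins in the RP105 libraries and 17, 14 and 6 in the anti-CD40/IL4 libraries, or 1.59, 1.63 and 1.31 per 1000 junctions in all against 2.20, 1.66 and 1.07. Crhr2, a hormone receptor gene among the 10 genes with most joins under RP105, has such a site, and the gene had 1, 1 and 3 junctions in the RP105 libraries and 2, 0 and 0 in the anti-CD40/IL4 libraries. Plcd3, a phospholipase C gene, has a recurrent site that was not stacked, with 37.8% of its joins at a single position. That gene had 4, 1 and 4 in the RP105 libraries and 3, 2 and 4 in the anti-CD40/IL4 libraries. Bcl2l1, which codes for a protein that holds back cell death, has no recurrent site. It had no joins in the RP105 libraries and 5, 4 and 3 in the anti-CD40/IL4 libraries, at least 1.46-fold lower against the floor (edgeR adjusted p = 0.288).

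Across the gene tally 1 gene rose and 2 fell, with 8 and 9 at an unadjusted p under 0.05. TMM factors gave 0 and 9, DESeq2 gave 0 and 14, and all junctions as library size gave 0 and 9. The median of the 162 genes moved by -1.22, -1.90 and -1.36 in those fits. Genes of early replicating fragile sites, which break under replication stress, had 0, 1 and 2 joins in the RP105 libraries, against 7, 2 and 8 in the anti-CD40/IL4 libraries, over 11 genes of which 2 could be tested and 0 passed. Long genes, where late replication leaves fragile sites, had 1, 4 and 2 joins in the RP105 libraries, against 10, 8 and 10 in the anti-CD40/IL4 libraries, with 0 of 4 tested passing and a median of -0.06. As shares of junctions outside chromosome 15 both lists overlapped between the groups, with 0.0% to 0.173% against 0.0737% to 0.418% for the first and 0.171% to 0.538% against 0.295% to 0.523% for the second.

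The joins themselves were then compared. Bait and prey shared at least 1 base of microhomology in 42.8%, 42.3% and 43.7% of junctions outside chromosome 15 in the RP105 libraries, against 45%, 46.8% and 46.3% in the anti-CD40/IL4 libraries, leaving out CA-repeat reads. Overlaps of at least 4 bases were found in 12.2%, 10.4% and 12.2% in the RP105 libraries, against 9.39%, 9.90% and 8.45% in the anti-CD40/IL4 libraries. Direct joins made up 15.2% ± 0.259 in the RP105 libraries and 15.1% ± 0.770 in the anti-CD40/IL4 libraries (SD, n = 3 each), and overlapped. More than 10 bases lay between bait and prey in 34.4%, 31.7% and 28.5% in the RP105 libraries, against 27.8%, 24.8% and 25.9% in the anti-CD40/IL4 libraries. Each of these differences was a few percentage points, and the exact permutation p was 0.1, the smallest possible, where groups did not overlap. The RP105 libraries labelled wild type overlapped the anti-CD40/IL4 libraries on each of those measures. They had 42.1% to 50.1% with at least 1 shared base, 8.94% to 12.1% with at least 4 and 24.5% to 32.7% with more than 10 bases between. Single KU55933 libraries ranged from 39.9% to 67.5% for at least 1 shared base and from 6.75% to 29.0% for at least 4.

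Among plus-strand joins within 10 kb telomeric of the break the same measures overlapped between the groups, except direct joins. At least 1 shared base was found in 45.5%, 46.7% and 35.6% in the RP105 libraries and 42.4%, 47.9% and 49.97% in the anti-CD40/IL4 libraries. RP105 replicate 3, which came from another MiSeq run than replicates 1 and 2, was the low value of its group. Direct joins there made up 5.24%, 6.07% and 6.00% in the RP105 libraries, against 6.72%, 6.91% and 7.51% in the anti-CD40/IL4 libraries. The direction of this difference depends on the labels, since the RP105 libraries labelled wild type had 8.33% to 10.3%. The bait reached the first I-SceI unit in 45.4% ± 5.73 and 45.2% ± 2.87 of these joins, RP105 before anti-CD40/IL4, and in 57.2% ± 4.99 and 63.1% ± 1.05 of joins outside chromosome 15 (SD, n = 3 each). Plus-strand prey made up 50.7% ± 1.53 of junctions outside chromosome 15 in the RP105 libraries and 49.9% ± 0.725 in the anti-CD40/IL4 libraries, so neither group favoured a strand there.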

How the data were processed

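Each row of a deposited file is 1 junction, with its prey placed on mm9 (per the labels), its read and the mm9 sequence of the prey; 7 of the deposited files also give a whole-number read count per junction, which entered no test. Per the labels, DNA was cut with HaeIII before adapter ligation. The aligner and its filters: not given in the sources used here. From these files 56 repeated rows, 3 mitochondrial rows and 1 broken record were dropped. Counts are junctions per region and library.

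The break was placed at 61818878, where minus-strand and plus-strand joins labelled Myc separate best. EdgeR 4.0.16 quasi-likelihood tests in R 4.3.3 were fitted to all 16 libraries for RP105 minus anti-CD40/IL4 in the libraries labelled ATM-deficient: 29 features, 455 bins of 5 Mb with at least 20 junctions and 162 genes with at least 10, with junctions outside chromosome 15 as library size, and 37 regions with all junctions as library size. Within each tally the Benjamini-Hochberg adjustment was used with a threshold of 0.05. SE is the log2 fold change over the square root of F. Shares per library were compared by two-sided exact permutation tests, adjusted over 35. Intervals of counting error and floors cover counting error only. Gene names are the files' own, and 45% of junctions outside chromosome 15 carried none.

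The bait was followed from its commonest 18 bases, found in 98.2% of reads. Named items were the called features, bins and genes, chromosome 12 parts, antigen receptor loci, switch regions, the 10 genes with most joins in each group, up to 10 members of each gene list with at least 10 junctions and the recurrent sites with most joins. Members, lists, tests and alternatives were chosen with earlier results of these data known. Alternatives were TMM, DESeq2 1.42.0, other library sizes, filters, bin sizes, windows and removals of rows, single libraries left out, and a replicate block. Correlations of deviations from group means between same-numbered libraries were 0.119, 0.0390 and 0.0558 over 258 bins of 10 Mb, so the numbers were not taken to pair the samples. The fits were tested on simulated counts.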

Additional observations from a re-analysis of the deposited data

Results flagged for a closer look

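The effect of the stimulus differed between the labelled genotypes by the interaction term of the edgeR fit, which subtracts the RP105 minus anti-CD40/IL4 difference of the libraries labelled wild type from that of the libraries labelled ATM-deficient. It passed for 3 of 29 features (10.3%). For chromosome 12 centromeric of Igh it was -2.85 (SE 0.21, edgeR adjusted p = 5.28e-13), with -0.89 under the ATM-deficient label and 1.96 under the wild-type label. For chromosome 1 it was 0.86 (SE 0.15), with 1.13 and 0.27 in the same order of labels. For chromosome 19 it was -0.94 (SE 0.27), with -0.32 and 0.62.

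As shares of all junctions, the interaction passed for 28 of 37 regions (75.7%), among them 7 of the 8 zones of chromosome 15. Beyond 1 Mb the interaction was -4.62 centromeric and -3.42 telomeric. From 100 kb to 1 Mb it was 3.10 telomeric and -2.11 centromeric. From 10 to 100 kb it was 2.38 telomeric and -0.93 centromeric, and within 10 kb telomeric it was 1.18. Within 10 kb centromeric it was -0.09 (SE 0.28, edgeR adjusted p = 0.855), with -1.04 under the ATM-deficient label and -0.96 under the wild-type label. The 6 RP105 libraries enter each of these terms under the genotype of their labels.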

How the results depend on the processing

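Igh constant and switch and chromosome 12 centromeric of Igh stayed lower and past the threshold in every fit run. Features called higher (2) became 1 without CA-repeat starts, with reads through the Myc repeat removed too (chosen after the reads were seen) or with library sizes without chromosome 12, 0 without CA-repeat starts and recurrent sites, and 4 (with 3 lower) when no more than 1 Mb at the break was left out; without 1 library at a time 1 to 2 rose and 2 fell. Regions called (2 higher, 25 lower) became 5 and 7 with TMM factors and 5 and 4 with DESeq2; without 1 library 2 to 3 and 25 to 26. Bins called (3 and 3) became 0 and 6 with TMM, 1 and 5 with DESeq2, 1 and 0 with only the 6 libraries, 0 and 0 with the replicate block (the bin at 110 Mb of chromosome 12 had -2.03), 7 and 4 with bins of 10 Mb, 8 and 8 with only 1 Mb left out, 1 and 2 without CA-repeat starts (also with reads through the Myc repeat removed), and 0 and 1 without recurrent sites as well; without 1 library 0 to 2 and 1 to 3. Genes called (1 and 2) became 0 and 9 with TMM, 0 and 14 with DESeq2, 0 and 9 with all junctions as library size (chosen after seeing the data), 3 and 2 with only the 6 libraries, 1 and 1 with the replicate block, 3 and 3 with at least 30 junctions, 3 and 1 without CA-repeat starts (also with reads through the Myc repeat removed), 0 and 1 without recurrent sites as well, 0 and 0 with no minimum and 1 and 1 with only 1 Mb left out; without 1 library 0 to 2 and 0 to 3. The interaction called 1 feature higher and 2 lower, with DESeq2 2 and 2 and without CA-repeat starts and recurrent sites 1 and 1; over regions 3 and 25, with TMM 5 and 4 and with DESeq2 6 and 4. Recurrent sites numbered 60 when merged within 200 bp.

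The replicate block, over numbers that do not pair the samples, left 2 features higher and 2 lower; each RP105 library correlated best with the anti-CD40/IL4 library of its own number, a hint from the data only. Differences in share ranged, without 1 library, from -23.0 to -20.2 percentage points outside chromosome 15, 30.9 to 35.1 within 1 Mb, -8.95 to -5.38 within 10 kb centromeric, 37.8 to 42.8 within 10 kb telomeric, -4.92 to -3.50 for chromosome 12 centromeric of Igh, -5.07 to -3.86 for Igh constant and switch, 6.24 to 7.49 for chromosome 1 and 15.1 to 17.8 for CA-repeat starts. Values turned their sign within 10 kb centromeric with TMM (0.39), DESeq2 (0.49) and each position counted once (0.053; 0.459 percentage points); at 10 to 100 kb centromeric likewise (0.91, 1.02 and 0.21; 0.118 percentage points); at 100 kb to 1 Mb centromeric with TMM (0.29) and DESeq2 (0.41); and in the bin at 30 Mb of chromosome 1 without CA-repeat starts and recurrent sites (-0.53). Counting each position once caps the crowded windows telomeric of the break. Depth also limits the gene tally: the RP105 libraries held 586, 744 and 1156 junctions outside chromosome 15.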
